A study of Homo sapiens with 2 samples.

Results

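The 9 genes described here encode proteins that store, release and remove calcium in heart muscle cells: RYR2, ATP2A2, SLC8A1, PLN, SLN, CASQ2, TRDN, HRC and JPH2. They were taken by name from the 36601 genes of the RNA library. The library came from 1 culture of the human embryonic line HES2 that was differentiated towards sinoatrial node-like pacemaker cells (SANLPC in the labels). Each cell also carried a count of barcode tags from an antibody against human CD34, so the 2 samples of the series are 2 readouts of the same cells. Live single cells were sorted with DAPI and not selected on CD34. No genetic change or drug is named in the labels, and no day of culture is given.

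Groups were drawn from the RNA counts. Cardiomyocytes were cells with at least 2000 CPM of TNNT2, cardiac troponin T, where CPM is the number of UMIs of a gene scaled to an equal total of UMIs, and other cells had under 1000 CPM. Within cardiomyocytes, TBX3-positive cells had at least 4 UMIs (unique molecular identifiers, each standing for 1 captured transcript) of TBX3, a repressor of working myocardial genes in the sinus node. NKX2-5-positive cells had at least 3 UMIs of NKX2-5, a transcription factor of working myocardium, and cycling cells had at least 4 UMIs of TOP2A, a topoisomerase of dividing cells. Each was set against cardiomyocytes with 0 UMIs of that gene. CD34-tag-high and CD34-tag-low cardiomyocytes were the upper and lower 25% by antibody-tag UMIs (at least 279 and at most 45). These gates are ranges of a count and not cell types: 316 cells had exactly 4 TBX3 UMIs and 372 had 3, 70 had 3 NKX2-5 UMIs and 158 had 2, and 60 had 4 TOP2A UMIs and 92 had 3.

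Contraction of a heart cell is switched on by calcium released from the sarcoplasmic reticulum through the ryanodine receptor, encoded by RYR2, and ends when the calcium pump encoded by ATP2A2 returns it to the store. Phospholamban (PLN) and sarcolipin (SLN) are small membrane proteins that slow the pump. Calsequestrin (CASQ2) and the histidine-rich calcium-binding protein (HRC) hold calcium inside the store, triadin (TRDN) ties calsequestrin to the release channel, junctophilin (JPH2) holds the store against the surface membrane, and the sodium-calcium exchanger (SLC8A1) moves calcium out of the cell. In pacemaker cells, release from the store and the inward current carried by the exchanger contribute to the rhythm of spontaneous beating.

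After leaving out barcodes with under 1000 genes, over 25% mitochondrial UMIs or over 35000 UMIs, 11211 of 14829 barcodes remained, with a median of 16607 RNA UMIs (5th and 95th percentiles 4330.5 and 30198.5). Of these, 5516 were cardiomyocytes and 5246 other cells, at median depths of 16209 and 17257 UMIs, and 449 lay between the TNNT2 gates. No barcode was listed more than once. All 12 pacemaker markers listed were at least 1.5-fold higher in cardiomyocytes than in other cells, against 18.6% of all genes compared. SHOX2, a sinus node transcription factor, stood at 522 against 17.9 CPM. Of 8 working cardiomyocyte markers compared, 6 were higher and 2 lower, with NPPA at 452 against 11.1 CPM. This comparison therefore does not tell pacemaker cells from working cardiomyocytes. The other cells, split by a marker gene, were 3829 with EPCAM, an epithelial adhesion gene, 617 high in collagen gene COL1A1, 526 with the mesothelial gene UPK3B and 274 remaining cells. With 1 culture there is no replicate, so no test between groups is given and differences between cultures could not be assessed. Intervals are exact at the 95% level and reflect counting error alone. In summed counts, fewer cells with a transcript and less transcript per cell cannot be told apart, and the shares of cells given below bear on this only in part.

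The store genes separated cardiomyocytes from the rest of the culture, with 1 exception. Genes were compared where they reached 20 CPM in either group and called higher or lower at a ratio of at least 1.5 or at most 0.667. Of 8 calcium genes compared, 7 were higher in cardiomyocytes and 1, SLN, was lower, while CASQ2 was under 20 CPM in both groups. The background was high, since 45.3% of all 7520 genes compared were called, 18.6% higher and 26.8% lower. The median ratio was 17.8 over the calcium genes, 32.8 over 9 cardiomyocyte markers other than TNNT2, all of them higher, and 0.914 over all genes.

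Of the release genes, RYR2 (chromosome 1, 237042184 to 237833988 on GRCh38) had 394 CPM in cardiomyocytes and 21.5 CPM in other cells, a ratio of 18.4 (17.6 to 19.2). TRDN (chromosome 6, 123216339 to 123636950) had 256 and 9.72 CPM, a ratio of 26.4 (24.7 to 28.2). After each cell was thinned to 5000 UMIs, which left out 289 cardiomyocytes and 227 other cells, a RYR2 UMI was found in 77.5% of cardiomyocytes (76.3 to 78.6%) and 9.34% of other cells. A TRDN UMI was found in 69.7% and 4.60%, and the unthinned shares were 93.4% and 23.2% for RYR2 and 92.4% and 12.7% for TRDN. Both genes were therefore present in most cardiomyocytes and not in a small subset.

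Uptake genes followed, with opposite results for the pump's small inhibitors. ATP2A2 (chromosome 12, 110280616 to 110351093) had 2239 CPM in cardiomyocytes and 152 CPM in other cells, a ratio of 14.7 (14.5 to 15). PLN (chromosome 6, 118548296 to 118561716) had 805 and 20.6 CPM, and its ratio of 39.0 (37.3 to 40.8) was the highest of the 9 genes. SLN (chromosome 11, 107707378 to 107712056) had 8.84 CPM in cardiomyocytes and 33.2 CPM in other cells, a ratio of 0.266 (0.246 to 0.288). In a thinned cardiomyocyte the median count was 11 UMIs of ATP2A2 (quartiles 7 and 15) and 4 UMIs of PLN (quartiles 2 and 6), against 0 for both in other cells.

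The exchanger and the storage and junction genes completed the set. SLC8A1 (chromosome 2, 40097270 to 40512435) had 799 CPM in cardiomyocytes and 29.2 CPM in other cells, a ratio of 27.4 (26.4 to 28.5). HRC (chromosome 19, 49151198 to 49155396) had 111 and 6.45 CPM, a ratio of 17.2 (15.9 to 18.8). JPH2 (chromosome 20, 44106590 to 44187188) differed least of the 7 higher genes, with 41.9 and 10.5 CPM and a ratio of 3.99 (3.72 to 4.29). CASQ2, the main calsequestrin gene of heart (chromosome 1, 115700021 to 115768714), had 7.86 and 1.85 CPM, a ratio of 4.25 (3.59 to 5.06) on 723 and 169 counts. A CASQ2 UMI was found in 3.54% of thinned cardiomyocytes (3.06 to 4.08%) and 0.857% of other cells, 9.21% and 3.03% unthinned. Counts near the 3' end depend on the transcript as well as on its amount, so levels were compared within a gene and not between genes. CEP85L, whose locus overlaps PLN, had 26.9 CPM in cardiomyocytes and 37.3 CPM in other cells. The antisense genes SLC8A1-AS1 and TRDN-AS1 had 45.2 and 4.23 CPM in cardiomyocytes and 4.94 and 0.109 CPM in other cells.

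**Figure D1:**
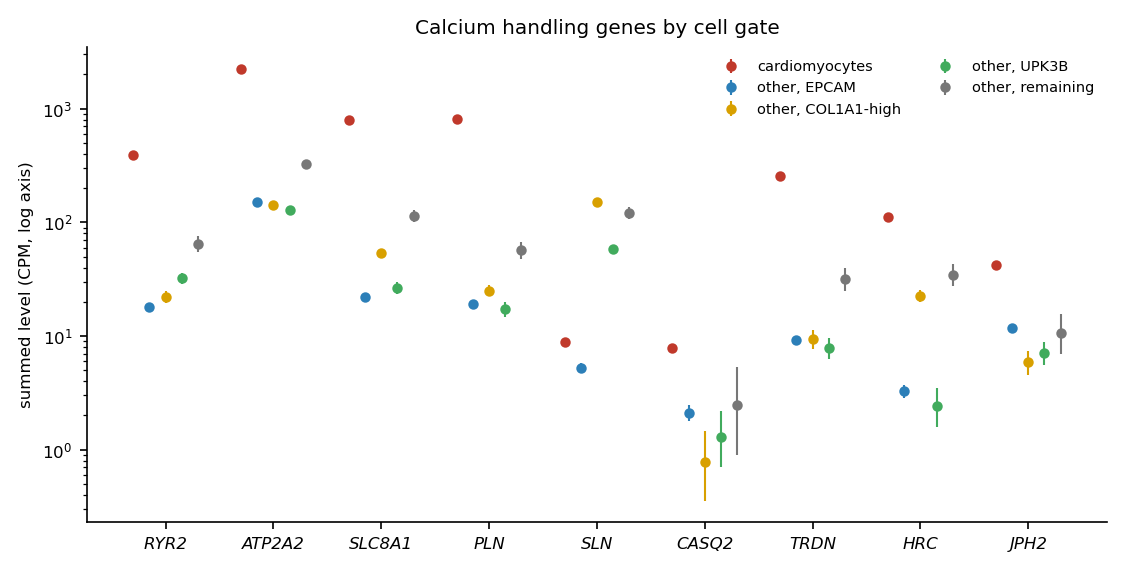
Summed level of each calcium handling gene (CPM, log axis) in cardiomyocytes and in the 4 gates of other cells, with exact 95% counting intervals. Cardiomyocytes are highest for 8 of the 9 genes, whereas SLN is highest in COL1A1-high cells at 152 CPM.

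Promoter sequences from RefSeq (GRCh38.p14) were found for 8 of the 9 genes, in 11 windows of the 250 bases before a transcript start. Printed 5′ to 3′ on the strand of the gene are those of PLN, HRC and JPH2, chosen after their values were seen because, of the genes over 20 CPM, PLN and HRC had the lowest and JPH2 the highest ratio in the comparison by cell cycle below. Capitals mark matches to the motifs searched.
PLN (chr6:118548046-118548295, plus strand): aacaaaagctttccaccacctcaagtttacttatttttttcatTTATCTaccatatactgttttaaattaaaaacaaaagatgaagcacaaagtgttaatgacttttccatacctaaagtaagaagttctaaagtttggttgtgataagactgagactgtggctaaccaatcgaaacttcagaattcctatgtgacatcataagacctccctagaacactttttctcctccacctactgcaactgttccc
HRC (chr19:49155397-49155646, minus strand): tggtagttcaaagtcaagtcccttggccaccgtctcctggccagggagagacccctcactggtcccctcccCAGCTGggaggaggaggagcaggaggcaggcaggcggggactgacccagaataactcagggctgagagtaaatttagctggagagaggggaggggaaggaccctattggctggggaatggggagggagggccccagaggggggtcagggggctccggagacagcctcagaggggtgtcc
JPH2 (chr20:44187189-44187438, minus strand): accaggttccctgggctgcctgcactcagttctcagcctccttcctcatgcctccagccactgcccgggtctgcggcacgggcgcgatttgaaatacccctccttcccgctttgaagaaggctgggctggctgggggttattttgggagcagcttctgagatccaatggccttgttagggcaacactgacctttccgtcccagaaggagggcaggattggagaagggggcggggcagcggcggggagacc
The 5 motif types, named for cardiac factors, were searched on both strands and no 2 matches overlapped. The GATA-type motif AGATAA was found before PLN (207 bases before the start) and SLC8A1 (70 bases) and in 9.17% of all 35116 promoter windows of the same length. The E-box motif CAGCTG was found before HRC (179 bases) and RYR2 (15 bases) and in 14.0% of windows. The NKX-type motif CAAGTG was found before TRDN (50 bases) and in 9.50% of windows. The MEF2-type motif (CTA and TAG with 4 bases of any kind between, 2.36% of windows) and the T-box-type motif AGGTGTGA (0.786%) were found in none of the 11 windows. No motif was shared by more than 2 of the 8 genes, and a match describes letters and not a bound site.

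In droplet data some RNA floats free and is counted in every cell, and the cardiomyocyte markers are given here for comparison. In EPCAM-gate cells the 9 markers stood at 2.18% (MYH6) to 8.44% (NEBL) of their cardiomyocyte level, with a median of 2.94%, and without NEBL the highest was ACTN2 at 3.83%. PLN at 2.37%, SLC8A1 at 2.77%, HRC at 2.94% and TRDN at 3.62% lay among the markers other than NEBL. RYR2 at 4.58% and ATP2A2 at 6.76% lay between these and NEBL. JPH2 at 28.3%, CASQ2 at 26.8% and SLN at 59.5% lay above it, CASQ2 on few counts. The part of free RNA in any of these levels was not tested. For JPH2, 5.72% of thinned EPCAM-gate cells (5.0 to 6.52%) and 18.9% of cardiomyocytes had a UMI, or 17.5% and 47.1% without thinning (median 17112 and 16209 UMIs per cell).

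Among the non-cardiomyocytes, COL1A1-high cells carried a part of the set. Against EPCAM-gate cells they had SLN at 152 against 5.26 CPM (28.9-fold, 25.7 to 32.5), HRC at 22.6 against 3.26 CPM (6.93-fold) and SLC8A1 at 2.45-fold. HRC reached 20.3% of its cardiomyocyte level in COL1A1-high cells, where the 9 cardiomyocyte markers ran from 2.20 to 5.54%. SLC8A1 stood at 6.78% there, a little above the markers. JPH2 and CASQ2 were lower in COL1A1-high than in EPCAM-gate cells, at 0.50 and 0.37 of the level. These levels were not particular to COL1A1-high cells. The 274 remaining cells had SLN at 121 CPM, HRC at 34.5 CPM and SLC8A1 at 115 CPM, the last 2 above COL1A1-high cells. There HRC stood at 31.1% and SLC8A1 at 14.3% of the cardiomyocyte level, and the 9 markers at 4.29 to 16.9%. UPK3B cells had SLN at 57.8 CPM, HRC at 2.40 CPM and SLC8A1 at 26.4 CPM.

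SLN, which in the adult heart is mainly an atrial gene, behaved unlike the other 8 genes in this culture. Its 813 UMIs in cardiomyocytes fell in 151 cells (2.74%), and the 56 cells with most, 1% of cardiomyocytes, held 87.9% of them. For PLN the same 1% held 4.16%. The 35 cardiomyocytes with at least 4 SLN UMIs had SLN at 780 CPM, COL1A1 at 2040 CPM, the matrix gene MGP at 2126 CPM and the phospholipase gene PLA2G2A at 541 CPM. The 5365 cardiomyocytes with 0 SLN UMIs had 101 CPM of COL1A1, 76.9 CPM of MGP and 0.754 CPM of PLA2G2A. Median depths were 22758 and 16113 UMIs, and TNNT2 stood at 3801 and 6802 CPM. The muscle genes ACTA1 and TNNT1, of skeletal actin and slow skeletal troponin T, stood at 135 and 67.4 CPM in the 35 cells, against 7.02 and 3.19 CPM. Over all cardiomyocytes, PLA2G2A stood at 34.2 CPM in cycling and 0.867 CPM in non-cycling cells, whereas SLN stood at 4.59 and 9.76 CPM. The summed level of PLA2G2A thus need not describe most of the 35 cells, and its spread among them is not given here. Without the 35 cells, SLN in cardiomyocytes was 1.68 CPM (1.42 to 1.97).

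SLN thus went with collagen in both kinds of cell. In cardiomyocytes with 0, 1 to 3, 4 to 15 and at least 16 COL1A1 UMIs, SLN stood at 0.98, 2.39, 20.8 and 175 CPM, and PLN at 881, 784, 480 and 380 CPM. In other cells SLN stood at 7.40, 7.19, 16.5 and 145 CPM over the same steps. After thinning, an SLN UMI was found in 27.1% of COL1A1-high cells (23.6 to 30.9%), 1.98% of EPCAM-gate cells and 1.30% of cardiomyocytes, and the unthinned shares were 39.4%, 6.40% and 2.74%. The share in cardiomyocytes was therefore below that in EPCAM-gate cells, and no expression of SLN in most cardiomyocytes was detectable at this depth. Whether cells with both collagen and troponin transcripts were droplets of more than 1 cell was not tested.

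**Figure D2:**
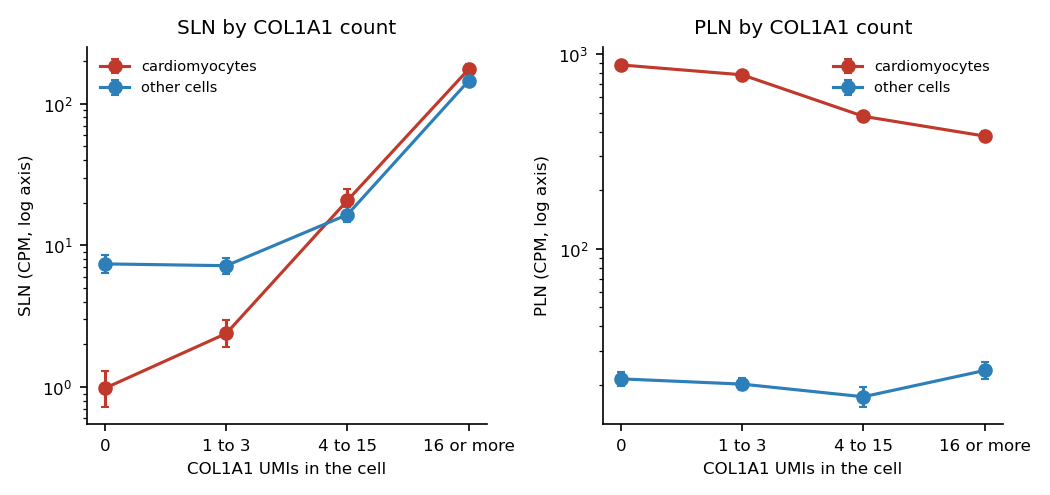
SLN (left) and PLN (right) in CPM on log axes, in cells grouped by their COL1A1 UMIs, for cardiomyocytes and other cells, with exact 95% counting intervals. SLN increases with COL1A1 to 175 CPM in cardiomyocytes and 145 CPM in other cells, whereas PLN in cardiomyocytes goes from 881 to 380 CPM.

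Cycling cardiomyocytes had less of most store genes as a share of their UMIs. Of 7 calcium genes compared between 619 cycling and 4034 non-cycling cardiomyocytes, 5 were lower and none higher, against 14.1% called of all 6889 genes compared, 3.41% lower and 10.7% higher. The median ratio was 0.593 over the 7 genes and 1.01 over all genes. Of 9 cardiomyocyte markers, 1 (MYBPC3, a thick filament gene) was lower, with a median of 0.749 over the 9. TNNT2 itself stood at 4402 CPM in cycling and 7310 CPM in non-cycling cells. Cycling cells were deeper, with a median of 22411 against 15532.5 UMIs, and had a median of 10.9% against 12% mitochondrial UMIs. A lower CPM in deeper cells is a smaller share of the UMIs, and need not be an equally smaller number of transcripts per cell. In the 619 cycling and 4034 non-cycling cells, counts were 3967 and 26672 for RYR2, 5706 and 57261 for PLN, and 539 and 2737 for JPH2.

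The pump and its inhibitor were among the lower genes. PLN had the lowest ratio, 422 against 903 CPM (0.468, 0.455 to 0.481). ATP2A2 had 1567 against 2404 CPM (0.652, 0.643 to 0.661). A PLN UMI was still found in 80.4% of thinned cycling cells and 93.8% of non-cycling ones (97.6 and 96.2% unthinned). In thinned EPCAM-gate cells the share was 9.31%. Most cycling cardiomyocytes thus held PLN, at a lower CPM than non-cycling ones.

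HRC had 65.0 against 122 CPM (0.531, 0.495 to 0.570), SLC8A1 513 against 873 CPM (0.588, 0.574 to 0.603) and TRDN 166 against 280 CPM (0.593, 0.567 to 0.620). RYR2 was not called, at 293 against 420 CPM and a ratio of 0.698 (0.675 to 0.722). JPH2 was nearest to equal, at 39.9 against 43.1 CPM (0.924, 0.841 to 1.01). CASQ2 and SLN were under 20 CPM, at 0.633 and 0.470. At a 2-fold threshold only PLN was called, and the share of all genes called at that threshold is not given here.

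In cells with few TOP2A UMIs the ratios were closer to 1, except for JPH2. In 863 cardiomyocytes with 1 to 3 TOP2A UMIs, PLN stood at 0.813 of its level in cells with 0, SLC8A1 at 0.855, HRC at 0.861 and TRDN at 0.851. ATP2A2 stood at 0.892, RYR2 at 0.891 and JPH2 at 0.890, below its 0.924 in cycling cells, and the sarcomere genes MYL7, MYH6, TTN and ACTN2 at 0.890 to 0.923, with TNNT2 at 0.868. Since TNNT2 was lower in cycling cells too, the comparison was repeated within a band of 4000 to 8000 CPM of TNNT2, with 330 cycling and 1859 non-cycling cells. There PLN stood at 0.568, SLC8A1 at 0.627, HRC at 0.650 and TRDN at 0.660, all still called lower. ATP2A2, at 0.725, and RYR2, at 0.812, were not called in that band. Of the sarcomere genes, TTN (titin) stood at 0.810, TNNT2 at 0.874, MYH6 (a myosin heavy chain) at 0.892, MYL7 (an atrial light chain) at 0.971 and ACTN2 (alpha-actinin) at 0.977. In the band of 2000 to 4000 CPM, with 270 and 607 cells, HRC, at 0.638, alone of the 7 was called, with TRDN at 0.714, SLC8A1 at 0.729, PLN at 0.733, ATP2A2 at 0.877, RYR2 at 0.899 and JPH2 at 1.09, and MYL7 at 1.19. The band over 8000 CPM held 19 cycling and 1568 non-cycling cells. There SLC8A1 (0.527), PLN (0.574) and ATP2A2 (0.654) were called, and RYR2 stood at 0.729, JPH2 at 0.773, TRDN at 0.877 (0.706 to 1.08) and HRC at 0.898 (0.651 to 1.21). The share of all genes called within each of these bands is not given here, so the calls in them stand without a background. Summed markers of fibroblasts stood at 784 CPM in cycling and 706 CPM in non-cycling cells, and those of epithelium at 208 and 188 CPM. Their part in the result was not tested.

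**Figure D3:**
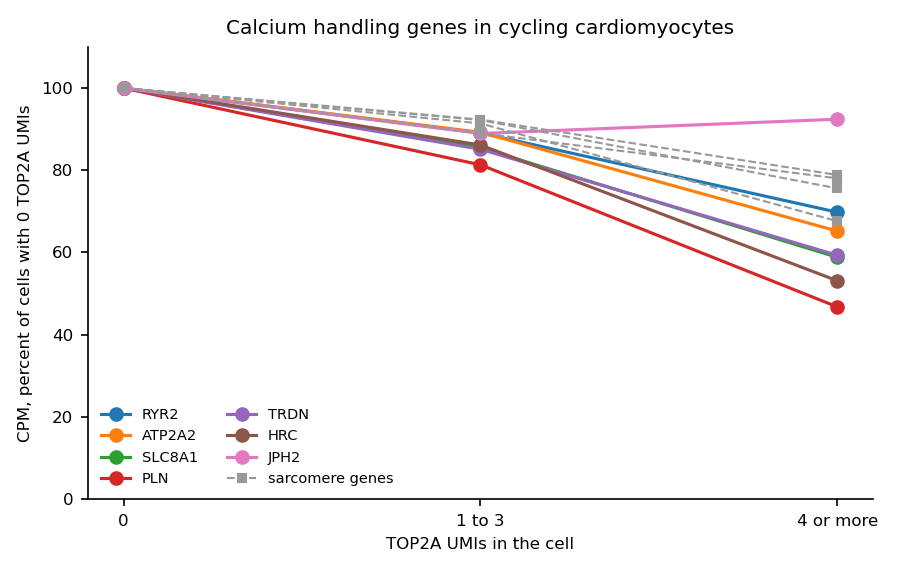
Level of 7 calcium handling genes (solid lines) and of the sarcomere genes MYL7, MYH6, TTN and ACTN2 (dashed grey) in cardiomyocytes with 0, 1 to 3 and 4 or more TOP2A UMIs, as a percent of the CPM in cells with 0. PLN reaches the lowest level, with a ratio of 0.468, and JPH2 the highest, with 0.924.

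By TBX3, a marker of the pacemaker programme, no store gene that reached 20 CPM differed by 1.5-fold. Of 7 genes compared between 1634 TBX3-positive and 1898 TBX3-negative cardiomyocytes, 0 were called, against 5.11% of all 6618 genes compared (2.33% higher and 2.78% lower). Of 12 pacemaker markers, TBX3 included, 4 were higher and 1 lower, and of 8 working cardiomyocyte markers 1 was higher and 5 lower. SHOX2 stood at 541 against 526 CPM and NPPA at 419 against 430 CPM, so the gate is not a clean split of pacemaker from working cells. TBX3-positive cells were deeper, with medians of 17327.5 and 14859 UMIs. RYR2 had 361 against 418 CPM (0.864, 0.842 to 0.887), TRDN had a ratio of 0.853 and HRC of 0.818 (0.779 to 0.860). ATP2A2 had 2329 against 2091 CPM (1.11, 1.10 to 1.13) and SLC8A1 842 against 770 CPM (1.09, 1.07 to 1.11). PLN stood at 0.935 and JPH2 at 0.986 (0.910 to 1.07), and over the alternatives both had values on either side of 1. The release and lumenal genes thus had ratios under 1 and the pump and exchanger ratios over 1, by small amounts that exceeded counting error. Over 9 cardiomyocyte markers other than TNNT2 the median ratio was 1.13 (lowest 0.913, highest 1.31), and over all genes it was 1.03. ATP2A2 and SLC8A1 lay within the range of the markers, and RYR2, TRDN and HRC below it.

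Both genes under 20 CPM had larger ratios. CASQ2 had 5.86 against 10.4 CPM in TBX3-positive and TBX3-negative cells (0.566, 0.467 to 0.684, on 177 and 291 counts). SLN had 2.45 against 15.8 CPM (0.155, 0.120 to 0.199, on 74 and 443 counts). The 19 TBX3-negative cells with most SLN held 88.3% of its counts there, and the 17 TBX3-positive cells with most held 66.2%. The interval for SLN does not cover this spread between cells. After thinning, an SLN UMI was found in 0.80% of TBX3-positive and 1.91% of TBX3-negative cells. COL1A1 stood at 85.6 CPM in TBX3-positive and 183 CPM in TBX3-negative cells, and MGP at 31.9 and 206 CPM. In cells with 0 UMIs of COL1A1, COL1A2 and COL3A1, 343 and 361 in number, SLN had 3 and 3 counts (0.793, 0.106 to 5.92) and CASQ2 43 and 30 counts (1.14, 0.697 to 1.88). For SLN these counts are too few to show or exclude a difference of the size seen over all cells.

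By NKX2-5, again 0 of 7 genes were called between 307 NKX2-5-positive and 4740 NKX2-5-negative cardiomyocytes, against 5.39% of all 6625 genes compared (2.66% higher and 2.73% lower). The ratios mirrored those by TBX3 for most genes. HRC had 145 against 106 CPM (1.36, 1.27 to 1.46), RYR2 480 against 384 CPM (interval of the ratio 1.20 to 1.30), PLN a ratio of 1.16 and TRDN of 1.14. SLC8A1 had 647 against 818 CPM (0.791, 0.764 to 0.817), ATP2A2 1933 against 2286 CPM (0.845, 0.829 to 0.862), and JPH2 stood at 1.05 (0.915 to 1.19). The 9 cardiomyocyte markers other than TNNT2 had a median ratio of 1.30 (lowest 0.909, highest 1.59), against 0.983 over all genes. HRC, RYR2, PLN, TRDN and JPH2 lay within the range of the markers, and SLC8A1 and ATP2A2 below it. With the threshold set at a 25% higher level, or its inverse, RYR2, HRC and SLC8A1 were called. The share of all genes called at that threshold is not given here.

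CASQ2 had the largest ratio by NKX2-5 although it stayed under 20 CPM. It had 17.2 CPM in NKX2-5-positive and 6.48 CPM in NKX2-5-negative cardiomyocytes (2.66, 2.12 to 3.31) on 98 and 505 counts. A CASQ2 UMI was found in 7.49% (4.81 to 11%) and 3.01% (2.52 to 3.55%) of these cells after thinning, 17.9% and 7.89% unthinned, and in 0.990% of EPCAM-gate cells. The ratio stayed over 1.5 in 16 of 16 alternatives that gave a value, from 1.60 to 2.82, and was 2.33 (1.24 to 4.09) in cells with 0 collagen UMIs. SLN had 15.3 against 8.69 CPM (1.76), but its 87 counts in NKX2-5-positive cells came from 10 cells and its ratio ran from 0.148 to 9.24 over 15 alternatives.

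Crossing the 2 gates widened these ratios. In 1474 TBX3-positive NKX2-5-negative cells against 132 TBX3-negative NKX2-5-positive cells, SLC8A1 stood at 850 against 611 CPM (1.39, 1.32 to 1.47) and ATP2A2 at 1.27 (1.23 to 1.31). HRC stood at 96.4 against 156 CPM (0.618, 0.554 to 0.692), RYR2 at 0.746 and TRDN at 0.767. CASQ2 stood at 5.51 against 21.4 CPM (0.257, 0.186 to 0.362) on 149 and 50 counts. JPH2 was level at 0.993 (0.807 to 1.23). HRC and CASQ2, which encode the lumenal calcium-binding proteins, were thus the genes of the set, SLN aside, that differed most between the cells at the ends of both gates. In the same cells the sarcomere genes stood at 0.739 (ACTN2), 0.809 (MYL7), 0.956 (TNNT2), 0.993 (TTN) and 1.13 (MYH6). Ratios of the size of RYR2 and TRDN were thus not particular to the calcium genes. None of these sarcomere genes was as low as HRC or CASQ2, or as high as ATP2A2 or SLC8A1. The other cardiomyocyte markers are not given for this contrast. Whether ratios of that size were particular to the calcium genes was therefore not tested. By NKX2-5 alone HRC lay within the range of the markers, and by TBX3 alone below it. No share over all genes is given for this contrast.

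By CD34 protein, 0 of 7 genes were called between 1380 tag-high and 1403 tag-low cardiomyocytes, against 3.84% of all 6621 genes compared (1.34% higher and 2.49% lower). RYR2 had 344 against 478 CPM (0.721, 0.70 to 0.743) and HRC 92.0 against 128 CPM (0.717, 0.677 to 0.759). Both were called with the threshold at a 25% higher level or its inverse, for which the share of all genes is not given here. ATP2A2 (1.02), SLC8A1 (0.978), PLN (0.943), TRDN (0.866) and JPH2 (0.989) lay closer to 1. Under 20 CPM, SLN had 3.63 against 11 CPM (0.330, 0.256 to 0.424) and CASQ2 5.94 against 11 CPM (0.541, 0.436 to 0.669). Over 13 alternatives the ratio of SLN ran from 0.174 to 2.78 and that of CASQ2 from 0.411 to 0.755. In cells with 0 UMIs of COL1A1, COL1A2 and COL3A1, 283 tag-high and 280 tag-low, SLN had 3 and 2 counts. CASQ2 had 28 and 23 counts in these cells (0.864, 0.480 to 1.57). Tag-high cells held more TBX3-positive cells, 63.0% against 7.91%, and were deeper, with medians of 17064.5 and 14292 UMIs. The part of these in the ratios was not tested.

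**Figure D4:**
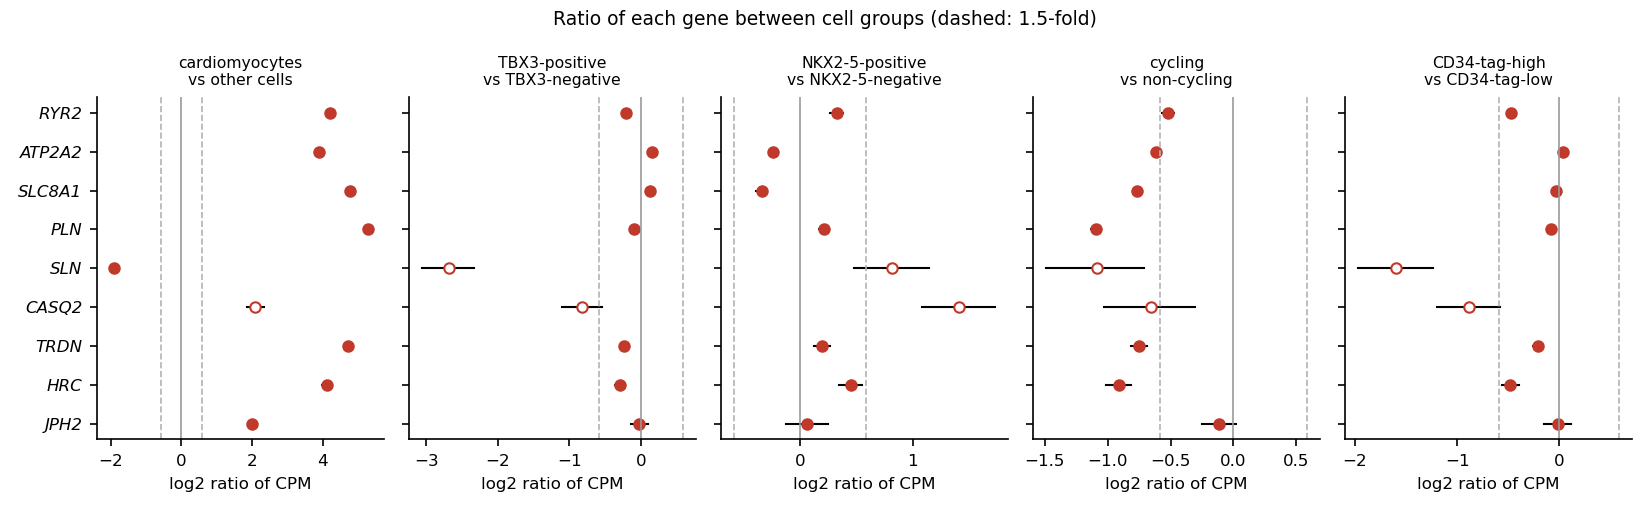
Log2 ratio of the CPM of each gene in 5 comparisons of cell groups, with exact 95% counting intervals. Filled points reached 20 CPM in a group, open points did not, and dashed lines mark 1.5-fold. Filled points outside the lines appear in the first panel (8 genes) and in the cycling panel (5 genes) only.

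Other genes of calcium handling differed in both directions between cardiomyocytes and other cells. Of 63 such genes found in the files, 39 could be compared between these groups, and 17 were higher, 6 lower and 16 neither, with a median ratio of 1.36, against 18.6% higher and 26.8% lower of all genes. Those with the highest ratios were PPP1R1A, an inhibitor of the phosphatase that acts on phospholamban (337 against 9.43 CPM, 35.7-fold), SRL, encoding the lumenal protein sarcalumenin (29.2-fold), and CMYA5, a muscle protein of the junctions (21.7-fold). Among the lower genes were the IP3 receptor gene ITPR2 (0.257) and TMX1, encoding a redox enzyme of the reticulum (0.357).

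By list, receptors and their regulators had 4 higher and 2 lower of 10 compared, pump paralogs and small regulators 2 higher and 1 lower of 5, lumenal and junctional proteins 6 higher and 2 lower of 15, and surface and mitochondrial transport 5 higher and 1 lower of 9, all against the same shares over all genes. In cycling cardiomyocytes 1 of 38 was higher, the calmodulin gene CALM2 (2.03-fold), and 5 were lower, against 10.7% and 3.41% of all genes. The lowest of these were the calcium channel subunit gene CACNB2 (0.604), the store counter-ion channel gene TMEM38A (0.617) and PPP1R1A (0.620). By TBX3, 1 of 38 was called, the L-type channel gene CACNA1D at 134 against 83.4 CPM (1.61-fold, 1.53 to 1.69), against 5.11% of all genes. By NKX2-5, 2 of 40 were called, the L-type channel gene CACNA1C (21.3 against 7.21 CPM, 2.95-fold) and the store calcium sensor STIM1 (11.2 against 38.2 CPM, 0.295), against 5.39% of all genes. By CD34 protein 1 of 38 was called, the anchoring protein gene AKAP6 (0.651), against 3.84% of all genes. In these last 3 comparisons the shares called were near or under those over all genes.

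Within cardiomyocytes the store genes varied with the level of TNNT2. In cells over 8000 CPM of TNNT2 (1814 cells) against cells of 2000 to 4000 CPM (1053 cells), PLN stood at 1118 against 411 CPM, HRC at 147 against 72.7 CPM and RYR2 at 486 against 258 CPM. ATP2A2 stood at 2685 against 1450 CPM, TRDN at 317 against 176 CPM and SLC8A1 at 927 against 550 CPM. JPH2 varied least of the 7, at 46.2 against 35.5 CPM, and CASQ2 stood at 8.42 and 8.47 CPM. SLN went the other way, from 32.1 CPM in the lowest band to 0.79 CPM in the highest. Sarcomere genes had ratios of 2.38 (ACTN2), 2.33 (TTN), 2.14 (MYL7) and 2.11 (MYH6) between the highest and lowest band. Of the 7 store genes PLN, at 2.72, lay above these, and the others lay below them, from 1.30 (JPH2) to 2.02 (HRC). Fibroblast markers summed to 1942 CPM in the lowest and 218 CPM in the highest band, epithelial markers to 371 and 113 CPM, and 25.6% and 1.05% of cells were cycling. Their part in the result was not tested.

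They also varied with the mitochondrial share of a cell's UMIs, which was not used to choose them. From 815 cardiomyocytes with under 8% mitochondrial UMIs to 926 with 16 to 25%, RYR2 went from 232 to 551 CPM, PLN from 527 to 1013 CPM and HRC from 69.1 to 142 CPM. ATP2A2 went from 1521 to 2630 CPM, SLC8A1 from 622 to 865 CPM and JPH2 from 35.1 to 43.8 CPM. Sarcomere genes differed between the same groups as well, with TTN at 5090 and 10195 CPM and ratios of 1.61 for ACTN2, 1.44 for TNNT2, 1.29 for MYH6 and 1.04 for MYL7. Fibroblast markers summed to 2044 CPM in the first group and 275 CPM in the second, and epithelial markers to 401 and 97.3 CPM. Median depths were 15052 and 16317.5 UMIs.

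The gradient split beyond the 25% limit. In 325 barcodes with over 25% mitochondrial UMIs and TNNT2 over the gate, left out elsewhere and with a median of 5764 UMIs, RYR2 stood at 744 CPM and SLC8A1 at 1345 CPM, whereas PLN stood at 347 CPM. Against cells under 8% these were ratios of 3.20 (3.01 to 3.41), 2.16 (2.07 to 2.26) and 0.660 (0.611 to 0.711). The sarcomere genes split too, with ratios of 3.46 for TTN, 1.22 for ACTN2, 1.19 for MYH6, 0.751 for TNNT2 and 0.365 for MYL7. Among cells within the limit the 7 genes went the same way, and beyond it PLN was under its level in cells with under 8%, while ATP2A2 stood at 1.89, HRC at 1.95 and JPH2 at 1.18 (0.931 to 1.48).

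**Figure D5:**
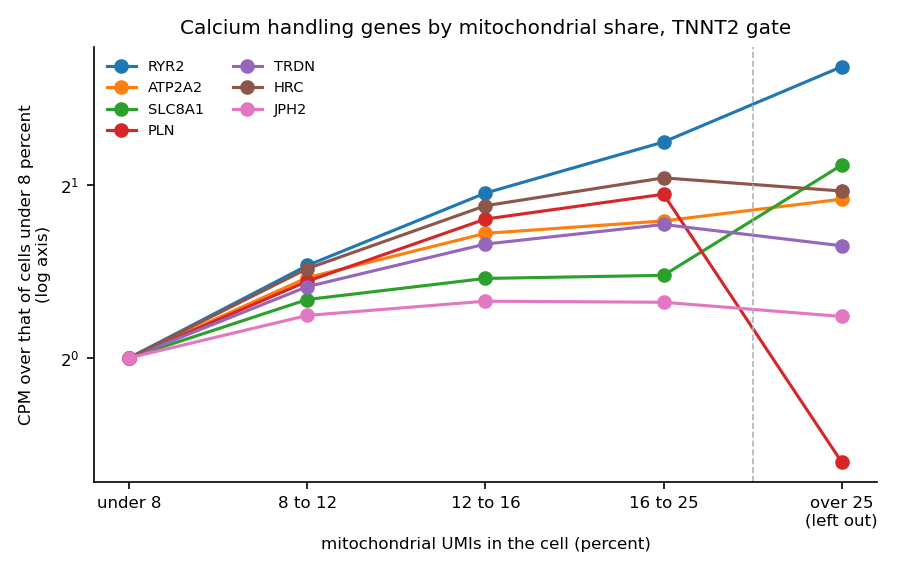
Level of 7 calcium handling genes in cells over the TNNT2 gate by mitochondrial share, relative to cells under 8% (log axis), with the barcodes over 25%, left out of all other comparisons, to the right of the dashed line. RYR2 reaches 3.20 there, while PLN falls under its starting level to 0.660.

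Across single cells the genes were only loosely linked. Over 5227 cardiomyocytes thinned to 5000 UMIs, the highest of 36 correlations was that of ATP2A2 with SLC8A1 (Pearson's r 0.406), followed by RYR2 with ATP2A2 (0.302), RYR2 with SLC8A1 (0.248) and ATP2A2 with PLN (0.214). For JPH2, CASQ2 and SLN the highest value with another gene of the set was 0.0641, that of JPH2 with SLC8A1. These cells share 1 library and the counts per cell are small, so the values describe this library only. PLN had an r of 0.386 with TNNT2, above its value with any of the 8 other genes.

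The genes with the most similar pattern were sought over 12 groups of cardiomyocytes formed by crossing TBX3, NKX2-5 and TOP2A counts, among 6270 genes, by Pearson's r of log2(CPM + 1). For RYR2 these were DECR1, PPARGC1A and FABP3 (0.979, 0.975 and 0.975). For ATP2A2 they were TM7SF2, SLC8A1 and the atrial light chain gene MYL4 (0.987, 0.982 and 0.979), and for SLC8A1 UBL5, ATP2A2 and POPDC2 (0.985, 0.982 and 0.979). For PLN they were SLC25A4, MICOS13 and MYH7B (0.983, 0.983 and 0.982), the first encoding a mitochondrial adenine nucleotide carrier. TRDN was closest to HSF1, SGCA and FABP3 (0.989, 0.984 and 0.983), and HRC to TRIM55, NDRG2 and NDUFC1 (0.981, 0.981 and 0.975). CASQ2 was closest to PPP2R3B, PGM5 and PPARGC1A (0.974, 0.966 and 0.956). JPH2 had no gene over 0.819 (C6orf89, then WNK1 at 0.791 and LRRC47 at 0.776) and SLN none over 0.828 (PHLDA1, then EXT1 at 0.827 and FBXW7 at 0.806). The 12 groups come from 1 library and differ in depth, and high values over so few points are a description only.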

How the data were processed

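The deposited matrix held whole-number UMI counts per gene and per antibody tag in each barcode, per the file headers. The submitters' processing notes name Cell Ranger 6.1.2 and the build GRCh38, and gene coordinates come from the RefSeq table of that build. The deposited barcode and feature lists were used as labels. The members and gene lists were chosen with earlier results of these data known. For each group, counts were added up and scaled to CPM of all RNA UMIs, and groups were compared by the ratio, with an exact Poisson interval for a sum and an exact conditional binomial interval for a ratio. Thinning drew 5000 UMIs per cell once. No doublet caller was run: the 35000 UMI limit was used, and alternatives left out cardiomyocytes high in EPCAM, CDH1, COL1A1 and COL3A1 or kept only those with 0 collagen UMIs. Symbols listed more than once (10 in the files) include no gene named here. The text names all 9 genes, for each the 3 genes with the highest r, and of the other calcium genes at most the 3 highest and 3 lowest called in a comparison; further genes were named after their values were seen. A gene that this rule takes is not reported here. Marker lists of other cell types were summed too: in cardiomyocytes and other cells, working cardiomyocyte markers gave 1567 and 218 CPM, cell cycle markers 917 and 1283 CPM, smooth muscle markers 5373 and 1062 CPM, skeletal muscle markers 1029 and 24.9 CPM, endothelial markers 8.97 and 24.4 CPM, blood markers 1.53 and 1.04 CPM, neural markers 7.32 and 56.8 CPM and epicardial markers 132 and 1390 CPM. The ratio script was checked on simulated counts. Python 3.11.15, numpy 2.4.6, scipy 1.17.1 and pandas 2.3.3 were used.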

Additional observations from a re-analysis of the deposited data

How the results depend on the processing

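Between cardiomyocytes and other cells, all 13 alternatives gave a count of called genes within 1.5 times the 8 reported (6 to 9). By TBX3, against 0 called, a floor of 5 CPM called 2 (SLN and CASQ2), a total without mitochondrial and ribosomal protein genes 1 (SLN) and a 15% mitochondrial limit 1 (SLN). By NKX2-5, against 0, the 5 CPM floor called 2 (SLN and CASQ2), a threshold of a 25% higher level or its inverse 3, the total without mitochondrial and ribosomal protein genes 1 (CASQ2), cells with 0 TBX3 UMIs 2 (SLN and CASQ2), cells with at least 4 TBX3 UMIs 1 (HRC), the TNNT2 band of 4000 to 8000 CPM 1 (SLN) and the band of 8 to 16% mitochondrial UMIs 1 (SLN). By cycling, against 5, a 2-fold threshold called 1 (PLN), and the other 16 of 17 alternatives gave 4 to 7. By CD34 protein, against 0, the 5 CPM floor called 2 (SLN and CASQ2) and the 25% threshold 2. The lower floor and thresholds change counts by construction, and the cause was not tested for the others. The share of all genes called under each of these settings is not given here, so these counts cannot be set against a background. The TNNT2 and mitochondrial bands and the collagen-free cells were chosen after seeing the data. No paired analysis was possible because the series holds 1 culture and no replicates. SLN and CASQ2 rest on 813 and 723 counts in cardiomyocytes, which limits what can be read from them in smaller groups.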

Other observations

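Cells of other kinds that carried SLN had a profile of their own. The 188 other cells with at least 4 SLN UMIs had SLN at 604 CPM, COL1A1 at 4217 CPM, MGP at 2909 CPM and the matrix gene POSTN at 1289 CPM, against 670, 217 and 86.7 CPM of the last 3 in the 4630 other cells with 0 SLN UMIs. ITLN1, a mesothelial lectin gene, stood at 1051 against 55.1 CPM, PLA2G2A at 442 against 3.55 CPM and TNNT1, the slow skeletal troponin T gene, at 202 against 20.9 CPM. The skeletal muscle genes MYOD1, MYOG and ACTA1 had 0 counts in these 188 cells, unlike the 35 cardiomyocytes with at least 4 SLN UMIs, where ACTA1 stood at 135 CPM and MYOD1 and MYOG had 0 and 2 counts. PLN stood at 27.5 CPM in the 188 and 20.4 CPM in the 4630 other cells. Median depths were 21160.5 and 16973.5 UMIs.

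The 449 cells between the TNNT2 gates, used in no comparison, had intermediate levels of PLN (182 CPM), ATP2A2 (813 CPM) and RYR2 (148 CPM), and SLN at 86.1 CPM. The 498 barcodes over 35000 UMIs and over the TNNT2 gate had PLN at 471 CPM, ATP2A2 at 1359 CPM, RYR2 at 239 CPM and SLN at 18.8 CPM. Fibroblast markers summed to 2686 CPM and epithelial markers to 650 CPM in the latter, against 738 and 196 CPM in the cardiomyocytes kept.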
